A study of Mus musculus with 12 samples.

Results

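The 37 genes described here encode subunits of the proteasome, the barrel-shaped protease that degrades ubiquitin-tagged proteins in the cytosol and nucleus. They were taken by symbol from the 22416 genes of the count files: Psma1 to Psma7, Psmb1 to Psmb10, Psmc1 to Psmc6 and every gene named Psmd with a number, and no measured value entered the choice. The measurement was single-cell ribosome profiling, in which the stretches of mRNA that ribosomes shield from nuclease are sequenced and counted per gene. Epidermal cells came from the back skin of female C57Bl/6 mice, all injected with cycloheximide, which halts ribosomes on their mRNAs, and were sorted singly into wells. The old group (22 to 26 months) comprised 5 plates and the young group (56 to 60 days) 5 plates. The labels name no animal, so plates with the same age and postnatal day were assumed to come from 1 mouse, and P662, P722 and P758 were old and P57, P59 and P60 young (n = 3 each).

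Of 1924 wells on the 10 plates, 1906 had at least 100 counts and were kept. Old animals gave 70549 counts (P662, 199 wells), 12886 (P722, 38 wells) and 896688 (P758, 627 wells), and young animals gave 5230 (P57, 13 wells), 12371 (P59, 48 wells) and 2384294 (P60, 981 wells). A single count was therefore worth 1.12 CPM (counts in each 1000000 of the animal's total) in P758 and 0.419 CPM in P60, but 77.6 CPM in P722 and 191 CPM in P57, so single genes could be read mainly in P758 and P60. Of 384 well barcodes, 383 occurred on more than 1 plate, and 0 wells repeated the counts of another. A plate sorted for Sca-1-negative cells, which mixes old skin (P679) and young skin (P57), and a P758 plate digested with different nucleases entered no test. Footprints were read without RNA-seq of the same cells, so a value reflects both mRNA amount and ribosome load, and in summed wells fewer cells of a type and less footprint RNA per cell cannot be told apart.

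The proteasome's core particle is a stack of rings: outer rings of alpha subunits form the gate, and inner rings of beta subunits carry the proteolytic sites in Psmb5, Psmb6 and Psmb7. A regulatory particle caps the core. Its base holds the AAA ATPases Psmc1 to Psmc6, which unfold substrates, and the ubiquitin receptors and scaffolds Psmd1, Psmd2 and Psmd4. Its lid holds the deubiquitinase Psmd14 and its partners. Under interferon and in immune cells, Psmb8, Psmb9 and Psmb10 replace Psmb5, Psmb6 and Psmb7 and form the immunoproteasome, which alters the peptides made for MHC class I presentation. Psmd5, Psmd9 and Psmd10 are chaperones that help to assemble the base and are not part of the finished particle. By these roles the list held 7 alpha subunits, 7 constitutive beta subunits, 3 immune subunits, 6 ATPases, 3 other base subunits, 8 lid subunits and 3 assembly chaperones.

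Promoter sequences are shown for Psmb9, which had the largest called difference of any member between classes of wells, for Psmb8, the other counted immune subunit of the same locus, and for Psmb5, the constitutive counterpart of Psmb8. They come from RefSeq (GRCm38.p6) and end at the base before the annotated gene start, written 5′ to 3′ on the gene's strand, with matches to any of 4 motifs in capitals. Psmb9 and Tap1, which encodes a subunit of the peptide transporter of MHC class I loading, lie head to head on chromosome 17 and leave 225 bases between them, all of which are shown. Psmb9 (chr17:34187331-34187555, minus strand) holds the CCAAT box in reverse orientation, Psmb8 (chr17:34197995-34198194, plus strand) a gamma-activated site, and Psmb5 (chr14:54617996-54618195, minus strand) an antioxidant response element.
Psmb9: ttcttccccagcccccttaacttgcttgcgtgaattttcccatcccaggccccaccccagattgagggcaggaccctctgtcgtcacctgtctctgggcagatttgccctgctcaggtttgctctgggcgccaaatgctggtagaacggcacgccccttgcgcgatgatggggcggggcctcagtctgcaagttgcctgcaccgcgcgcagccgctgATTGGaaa
Psmb8: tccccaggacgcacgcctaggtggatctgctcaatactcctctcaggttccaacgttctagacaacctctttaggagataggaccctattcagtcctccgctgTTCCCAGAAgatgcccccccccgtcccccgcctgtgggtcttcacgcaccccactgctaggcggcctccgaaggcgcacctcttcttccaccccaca
Psmb5: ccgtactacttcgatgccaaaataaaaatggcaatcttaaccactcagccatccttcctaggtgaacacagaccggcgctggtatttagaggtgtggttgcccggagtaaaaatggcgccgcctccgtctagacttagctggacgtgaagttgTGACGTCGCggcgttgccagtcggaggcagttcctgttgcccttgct
The window searched ran 250 bases before to 50 bases after each start on both strands, and 31 of the 37 members had one. The antioxidant response element TGACNNNGC, read by Nfe2l1, which drives proteasome genes, was found for 5 of the 31 members (16.1%), against 14.0% of 27025 genes. The CCAAT box was found for 12 members (38.7%), against 41.1% of genes. The gamma-activated site TTCNNNGAA was found for 2 members (6.45%), against 9.55% of genes. The interferon-response core, 2 copies of GAAA with any 2 bases between, was found for 3 members (9.68%), against 3.99% of genes. A match is a string of letters and not a bound site.

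All 37 members were counted. Together they took 13775 of 3382018 counts, or 0.407%. Their summed counts ranged between 25 for Psma3 and 742 for Psmd1 with a median of 390, and because no coding lengths were used these totals do not rank the genes by level. Both deep animals, P758 and P60, counted all 37, P662 counted 36, P722 27, P59 25 and P57 19, and 13 members were counted in all 6 animals. A well of P60 held a median of 4 counts of members and one of P758 a median of 2, and 89.2% of P60's and 85.3% of P758's wells held at least 1. Members of the same ring, present once in each ring of the assembled particle, had very different counts. In P60, Psma3 had 14 counts and Psma5 25, while Psma1 had 346 and Psma2 324. Psmb3 had 36 counts there, against 384 for Psmb4. The reference lists 6 pseudogenes named after members (of Psma5, Psmb5, Psmb6 with 2, and Psmb7 with 2), 0 of which are in the count files, and reads shared with such copies may have been dropped or split when reads were assigned. The part of such copies in the low counts was not tested.

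**Figure D1:**
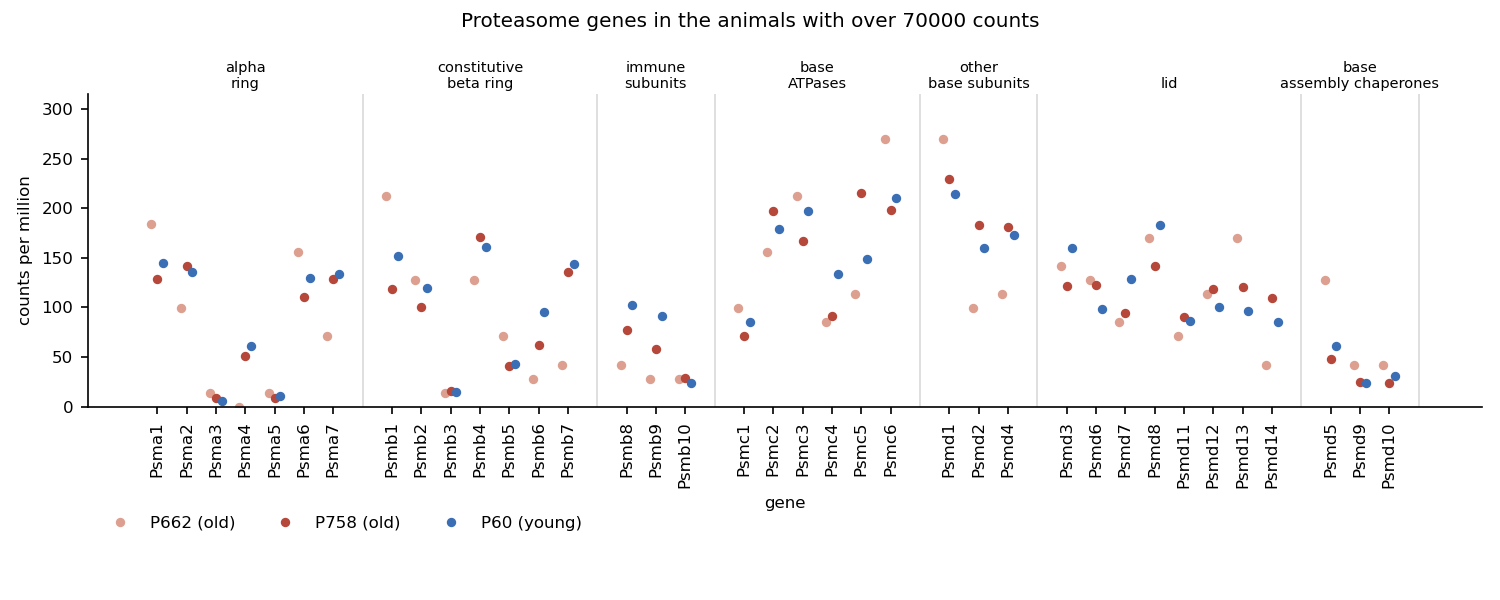
CPM (vertical axis) of each of the 37 proteasome genes (horizontal axis, grouped by role) in the 3 animals with the most counts, old P662 and P758 and young P60, with 1 point per animal. Most genes lie at like heights in P758 and P60, and Psma3, Psma5 and Psmb3 lie near 0 in all 3 animals.

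The design asks how translation differs between old and young epidermis. The proteasome's share of all footprint counts was 0.381% in P662, 0.458% in P722 and 0.394% in P758, against 0.593% in P57, 0.356% in P59 and 0.413% in P60. The old mean was 0.411 ± 0.0411% and the young mean 0.454 ± 0.124% (SD, n = 3 each), so the difference of -0.0428 percentage points was smaller than the spread between young animals. The groups overlapped, and the values of P57 and P59 rest on 31 and 44 counts.

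The core particle's share was 0.116%, 0.155% and 0.122% in old P662, P722 and P758, against 0.325%, 0.0728% and 0.135% in young P57, P59 and P60. P57, with 17 counts of core subunits, stood above all others and P59 below all others. The regulatory particle took 0.234%, 0.256% and 0.245% in the old animals in the same order, against 0.249%, 0.267% and 0.244% in the young ones. Its old mean was 0.245 ± 0.0111% and its young mean 0.253 ± 0.0120%. The value of P57 rests on 13 counts, and those of P722 and P59 on 33 each. The plates of P662 lay farther apart than the animals, at 0.208% and 0.293%. The immune subunits took 0.00992%, 0.0233% and 0.0162% in the old animals, against 0.0191%, 0% and 0.0218% in the young ones, where P59 had 0 of 12371 counts, which allows a share of up to 0.0243%. These 4 sets overlapped between the ages.

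**Figure D2:**
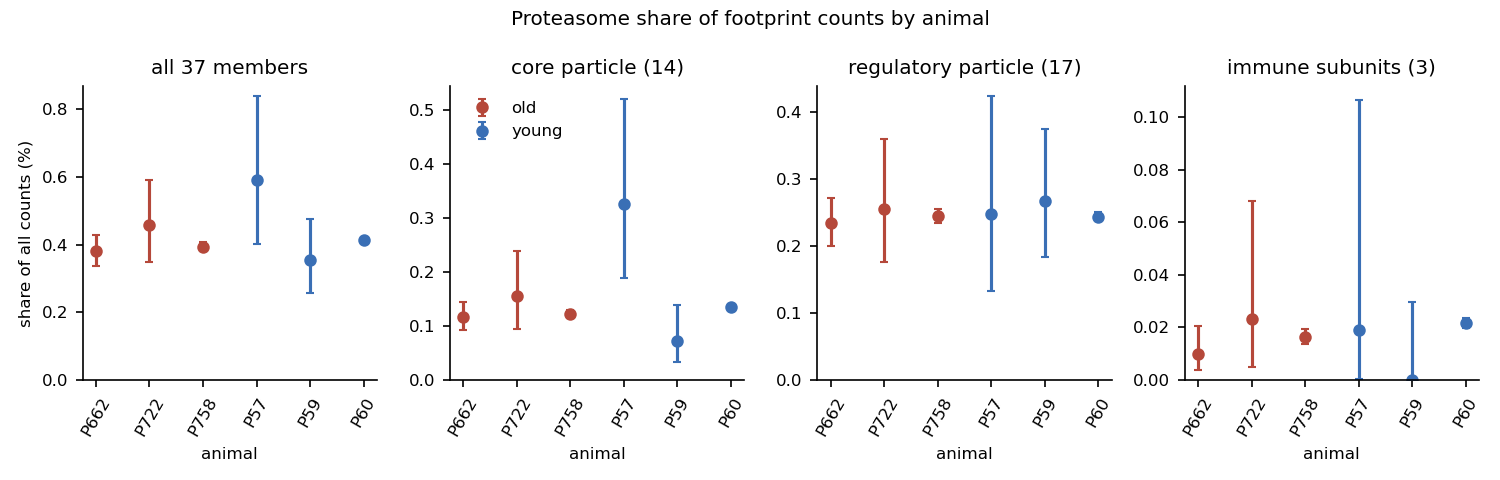
Share of all footprint counts (vertical axes, percent) taken by all members, the core particle, the regulatory particle and the immune subunits in each animal (horizontal axes, old left, young right), where points are animals and bars are exact 95% binomial intervals for counting error. The regulatory particle lies between 0.234% and 0.267% in all 6 animals, with wide intervals in P57, P59 and P722, while P57 stands high for the core particle.

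Ratios of subunits to one another do not depend on the total count. Regulatory subunits made up 66.7% (65.1 to 68.4, exact 95% interval) of core plus regulatory counts in P758, against 64.3% (63.4 to 65.3) in P60. The plates of these animals gave 66.5% and 66.9% for P758, against 64.6%, 64.7% and 62.5% for P60, so the animals' plates did not overlap, but each age rests here on 1 animal. Old P662 had 66.8% (60.6 to 72.6) and old P722 62.3% (47.9 to 75.2), against 43.3% (25.5 to 62.6) in young P57 and 78.6% (63.2 to 89.7) in young P59, so over all 6 animals the ages overlapped. Immune subunits made up 40.6% (35.5 to 45.9) of the counts of immune plus catalytic constitutive subunits in P758, against 43.5% (40.7 to 46.4) in P60, and these intervals overlap.

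No member was called between the ages. Counts summed per animal were compared with edgeR's quasi-likelihood test and Benjamini-Hochberg adjustment at 0.05 over the 5957 genes with at least 100 counts. Of the 37 members 31 reached that filter. Across all genes 35 were called, or 0.588%, and of the 31 members 0 were called, with 0 at an unadjusted p under 0.05. The members' log2 differences, old over young, ran between -0.65 and 0.47 with a median of 0.00, beside 0.01 for all genes, and 16 were above and 15 below 0. DESeq2 and limma-voom called 0 members as well, but they also called 0 of the 5957 genes. On simulated counts of the same depth and spread, the test recovered 1% of 2-fold and 30% of 4-fold changes, so moderate differences were not detectable at this depth.

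The 3 constitutive catalytic subunits cleave after different residues. Psmb5, with the chymotrypsin-like site, had 70.9, 0 and 41.3 CPM in old P662, P722 and P758, against 0, 0 and 42.8 CPM in young P57, P59 and P60. Psmb6, with the caspase-like site, had 28.3, 77.6 and 62.5 CPM in the old animals, against 0, 80.8 and 95.6 CPM in the young ones. Psmb7, with the trypsin-like site, had 42.5, 233 and 136 CPM in the old animals, against 382, 80.8 and 144 CPM in the young ones. For each of the 3 genes the ages overlapped, and in the deep animals alone P758 and P60 were close for Psmb5 and Psmb7 and apart for Psmb6.

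Among the 5 members with the smallest p, Psmb6 came first at log2 -0.65 (SE 0.50, edgeR adjusted p = 0.9999). The immune subunits Psmb9 and Psmb8 had -0.55 (SE 0.50) and -0.44 (SE 0.50), the ATPase Psmc4 -0.49 (SE 0.49) and the lid subunit Psmd13 0.47 (SE 0.49), all at the same adjusted p. Psmb9 had 28.3, 155 and 58.0 CPM in the old animals, against 0, 0 and 91.0 CPM in the young ones. Psmb8 had 42.5, 77.6 and 76.9 CPM in the old animals, against 191, 0 and 103 CPM in the young ones. Psmb10 had 28.3, 0 and 29.0 CPM in the old animals, against 0, 0 and 23.9 CPM in the young ones, and was too low to be tested. The immune subunits overlapped between the ages, and the 155 CPM of P722 and the 191 CPM of P57 are 2 counts and 1 count.

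Psmc4 had 85.0, 0 and 91.4 CPM in old P662, P722 and P758, against 0, 80.8 and 133 CPM in young P57, P59 and P60. Psmd13 had 170, 0 and 120 CPM in the old animals, against 0, 80.8 and 96.9 CPM in the young ones. Only the scaffold Psmd1 showed no overlap between the ages among the 37 members, with 269, 233 and 230 CPM in the old animals, against 0, 162 and 215 CPM in the young ones; among all tested genes 6.82% had no overlap. It was named after its values were seen, its log2 difference was 0.40 (SE 0.50), and it was not called. Of 35 further genes of the pathway (activators, assembly factors, ubiquitin genes, shuttle receptors, the p97 segregase, peptide loading), 26 were tested by age and 0 were called.

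Wells were grouped by clustering without the 37 members. Clusters were named from marker lists, and 5 named classes had enough wells in both deep animals. The largest contained 623 basal-like wells in 3 clusters. The basal layer holds the epidermal stem cells, and the name rests on a higher mean of the basal marker list, since none of the 3 clusters had a basal marker among its 10 leading genes. Of these, the Ly6a-led cluster (235 wells) scored higher for the fibroblast list, at a mean log2 ratio of 0.574, than for the basal list, at 0.275, and the fibroblast value lay below the 2 required to name a cluster fibroblast-like. Differentiated-like wells (271) formed a cluster of 212 led by Krt1 and Krt10, keratins of the suprabasal layers. The other 59 formed a cluster led by Arc, Ovol1 and early response genes such as Fosl1. This Arc-led cluster held 30 of the 108 differentiated-like wells of P758, 21 of the 48 of P662 and 2 of the 97 of P60. Proliferating-like wells (70) were led by histone or mitotic genes, T cell-like wells (46) by Cd3g and gamma-delta receptor genes, and outer bulge-like wells (97) by Cd34 and Lgr5 of the hair follicle stem cell niche. One basal-like cluster (152 wells) was led by early response genes such as Nr4a1 and Atf3; it held 88 of the 222 basal-like wells of P758 and 33 of the 267 of P60. The naming rule was set after the clusters were seen, and 5 clusters stayed unnamed. The unnamed cluster led by Igfbp3, Ctsl and Smoc2 (191 wells) scored 0.82 for the basal list. The 3 basal-like clusters scored lower, at 0.346, 0.275 and 0.381. It stayed unnamed because the melanocyte marker Dct was among its 10 leading genes and no basal marker was. The basal-like class therefore leaves out wells that scored higher for the basal list than its own.

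The proteasome's share differed between these classes in the same way in both deep animals, with higher values in proliferating-like and differentiated-like than in basal-like wells. It was 0.446% in proliferating-like wells of P758 and 0.492% in those of P60, against 0.322% and 0.306% in basal-like wells. In differentiated-like wells it was 0.441% in P662, 0.435% in P758 and 0.444% in P60, against 0.302%, 0.322% and 0.306% in basal-like wells of the same animals. In the shallow P59 it was 0.383% in differentiated-like and 0.360% in basal-like wells. The 15 basal-like wells of P722 had 0.470% (0.305 to 0.694, exact 95% interval), above every differentiated-like value given here. The exact 95% intervals of these class shares in P758 (0.411 to 0.460% in differentiated-like wells, against 0.300 to 0.345% in basal-like wells) and in P60 (0.425 to 0.464%, against 0.288 to 0.324%) did not overlap. Intervals apart also arose between plates of P60 over all wells: 0.435 to 0.461% on Young1, 0.389 to 0.415% on Young3 and 0.336 to 0.372% on Young9. The intervals of the P758 plates, 0.380 to 0.421% and 0.372 to 0.406%, overlapped. These intervals hold counting error and no spread between plates. T cell-like wells had 0.414% in P758 and 0.452% in P60. Outer bulge-like wells had 0.237% and 0.267%, below the basal-like value of the same animal, with intervals (0.179 to 0.309% and 0.229 to 0.310%) that overlap the basal-like ones in both.

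By single clusters of at least 5 wells, the mitotic proliferating-like cluster, led by Cenpf and Aspm, had the highest share in both deep animals, with 0.516% in P758 and 0.562% in P60. The histone-led proliferating-like cluster had 0.388% in P758 and 0.467% in P60. The unnamed cluster led by Igfbp3, Ctsl and Smoc2, with its higher basal score, had 0.469% and 0.463%, above the differentiated-like values of the same animals. At the low end lay the outer bulge-like cluster, the basal-like cluster with mitochondrially encoded genes among its leading genes, with 0.273% and 0.258%, and the unnamed Krt2-led cluster, with 0.316% and 0.274%. Over the 13 clusters with at least 5 wells in both animals the shares of P758 and P60 had r = 0.932 and rho = 0.879, given as a description, since clusters of one animal share plates and depth. Over clusters the share also moved with the median count per well, with a rho of 0.349 in P758 and 0.586 in P60. In wells of 1000 to 3000 counts, T cell-like wells had 0.531% in P758 (5 wells) and 0.444% in P60 (4 wells), against 0.340% and 0.315% in basal-like wells, with intervals apart in P758 and overlapping in P60. Outer bulge-like wells of that depth had 0.279% in P758 (4 wells) and 0.293% in P60 (21 wells), with intervals that overlap the basal-like ones.

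**Figure D3:**
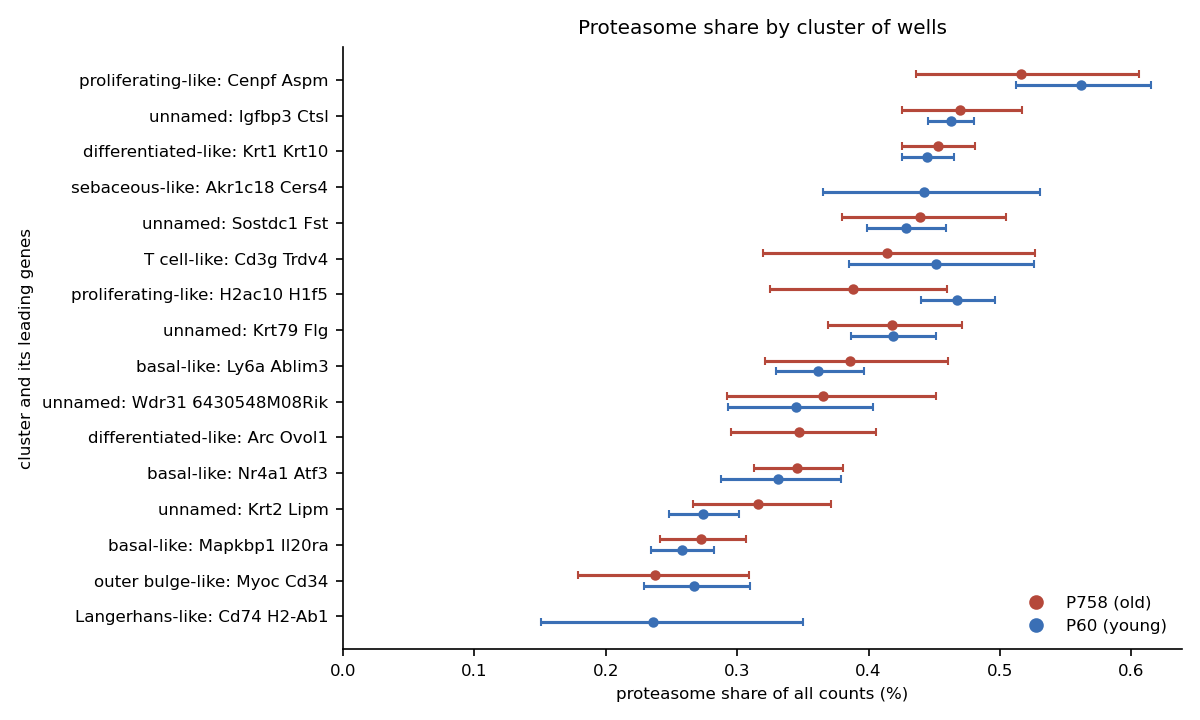
Proteasome share of all counts (horizontal axis, percent) in each cluster of wells (vertical axis, with its class and leading genes) in old P758 and young P60, for clusters of at least 5 wells, where bars are exact 95% binomial intervals for counting error. The Cenpf-led cluster lies highest in both animals, at 0.516% in P758 and 0.562% in P60, and the outer bulge-like cluster lies low, at 0.237% and 0.267%.

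Class tests summed counts per class and animal, with the animal as a block, in one edgeR fit over 4171 genes, of which 30 were members. Differentiated-like over basal-like wells gave 11 members called, all higher, while 34.8% of all genes and 33.7% of genes not used to cluster were called in either direction, and 14.8% of the genes not used to cluster were called higher. Of the 30 members 28 were above 0 and their median log2 difference was 0.68, beside -0.07 for the other genes not used to cluster. The classes were drawn from counts of the same wells, so the p-values describe these classes and not a sort made apart from the counts.

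The ATPases thread substrates into the core. All 6 were above 0 and 4 rose: Psmc3 (log2 1.02, SE 0.30, edgeR adjusted p = 0.00364), Psmc5 (1.00), Psmc2 (0.89) and Psmc1 (0.97). Psmc3 had 178, 177 and 216 CPM in differentiated-like wells of P662, P758 and P60, against 99.0, 129 and 87.5 CPM in basal-like wells. It was higher in differentiated-like wells in each of these 3 animals, and P59 had 1 count in each class. Of the other base subunits Psmd1 (0.78) and the ubiquitin receptor Psmd4 (0.85) rose.

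In the lid, Psmd7, the partner of the deubiquitinase Psmd14, had the largest log2 difference of any member in this comparison, 1.20 (SE 0.33, edgeR adjusted p = 0.00166). Its level was 148, 90.5 and 187 CPM in differentiated-like wells of P662, P758 and P60, against 49.5, 60.6 and 76.6 CPM in basal-like wells, and 0 counts in both classes of P59. Psmd14 itself rose by 0.98, with 59.2, 148 and 93.5 CPM in differentiated-like wells of these animals, against 0, 72.7 and 62.9 CPM in basal-like wells. The other 6 lid subunits were above 0, between 0.31 and 0.71, and were not called.

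In the core the alpha subunit Psma2 (0.74) and the catalytic subunits Psmb7 (0.84, SE 0.31) and Psmb6 (0.97, SE 0.39) rose. Psmb6 differed in P60, with 107 CPM in differentiated-like and 38.3 CPM in basal-like wells, and not in P758, with 50.7 and 52.5 CPM. Psmb10 was not tested, with 8 counts in differentiated-like wells of P758 and 2 in those of P60, against 9 and 11 in basal-like wells. The 2 tested immune subunits were below 0 and not called. Psmb8 stood at log2 -0.61 (SE 0.36, edgeR adjusted p = 0.180) and Psmb9 at -0.14 (SE 0.42, edgeR adjusted p = 0.827). Immune subunits were 34.4% (24.98 to 44.8) of immune plus catalytic constitutive counts in differentiated-like wells of P758 and 25.6% (19.7 to 32.4) in those of P60, against 49.5% (39.4 to 59.6) and 51.7% (42.4 to 60.9) in basal-like wells. The intervals are apart in P60 and overlap in P758. By pair, each immune subunit's part was lower in differentiated-like wells of P60. Only the intervals of Psmb10 with Psmb7 were apart there, at 0.308 to 8.85% against 13.2 to 40.3% in basal-like wells. Those of Psmb8 with Psmb5 (42.2 to 71.7%, against 57.1 to 85.8%) and Psmb9 with Psmb6 (19.9 to 42.7%, against 42.1 to 76.1%) overlapped. In P758 the intervals of every pair overlapped.

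Other values differed between these classes as well. Differentiated-like wells were deeper, with median counts of 1584.5 in P758 and 2626 in P60, against 891.5 and 1098 in basal-like wells, and keratins took 12.8% and 15.4% of their counts, against 4.82% and 4.55%. In wells of 1000 to 3000 counts the proteasome share was 0.415% in differentiated-like wells of P758 and 0.372% in those of P60, against 0.340% and 0.315% in basal-like wells, and the intervals overlapped. In wells of at least 3000 counts it was 0.456% in differentiated-like wells of P758 and 0.460% in those of P60, against 0.296% and 0.268% in basal-like wells, and the intervals were apart in both. Below 1000 counts the intervals overlapped in both animals. At 500 to 1000 counts the share was 0.341% in P758 and 0.427% in P60 in differentiated-like wells, against 0.309% and 0.311% in basal-like wells. At 100 to 500 counts the share was 0.450% in P758 (11 counts) and 0.239% in P60 (3 counts) in differentiated-like wells, against 0.336% and 0.341% in basal-like wells. In wells of 1000 to 3000 counts 3 members (Psmc2, Psmc6 and Psmd1) could be tested and 0 were called, while 27.1% of the 1211 genes tested were. Without keratin and mitochondrially encoded genes 17 members and 34.7% of genes were called. Without the clusters led by early response genes 11 of 29 members and 36.8% of genes were called. With the Igfbp3- and Smoc2-led cluster counted as basal-like, the basal-like share was 0.360% in P758 and 0.402% in P60. Of 31 members 6 were then called, 5 higher and 1, Psmb8, lower, beside 25.8% of genes in either direction and 12.3% higher. When wells of at least 500 counts were clustered anew, the 1 member called was again Psmb8, lower in differentiated-like wells, beside 990 of 4949 genes. In that fit 9.86% of genes were called higher, and the Igfbp3-led cluster was among those named basal. Leaving out P60 gave 3 of the 9 members then tested (26.9% of genes), leaving out P758 gave 7 of 28 (21.9%) and leaving out P59 gave 19 of 30 (37.6%).

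Of the 35 further pathway genes 23 were tested between the classes, and in differentiated-like wells 6 were called higher and 0 lower. They included the shuttle receptor Ubqln1 (log2 0.89), the ubiquitin gene Ubb (0.85), the segregase Vcp (0.93), itself among the genes used to cluster, Ddi2 (0.70), the protease that activates Nfe2l1, and the activator Psme3 (0.84). Nfe2l1 had 0.34 and was not called.

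Proliferating-like wells had more proteasome footprints than basal-like wells, with the largest difference in 1 immune subunit, Psmb9. The immune subunits' part of immune plus catalytic constitutive counts, given below, was not higher. With the animal as a block the comparison rests on P758 and P60, as no other animal had 5 proliferating-like wells. Of 30 members 14 were called, all higher, while 26.4% of all genes and 25.1% of genes not used to cluster were called in either direction and 13.8% of the genes not used to cluster were called higher. All 30 members were above 0, with a median log2 difference of 0.93 beside -0.06 for the other genes not used to cluster. Those called included Psmb1 (1.45), Psmb6 (1.38) and Psmb7 (1.25) of the beta ring, the alpha subunit Psma1 (1.03), the ATPases Psmc1 (1.64), Psmc3 (1.30) and Psmc4 (1.17), all 3 other base subunits (0.95 to 1.12), and the lid subunits Psmd14 (1.35), Psmd13 (1.14) and Psmd3 (1.08). Of these and the differentiated-like calls, 7 members were called in both, namely Psmb6, Psmb7, Psmc1, Psmc3, Psmd1, Psmd4 and Psmd14; the contrasts share their basal-like wells.

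**Figure D4:**
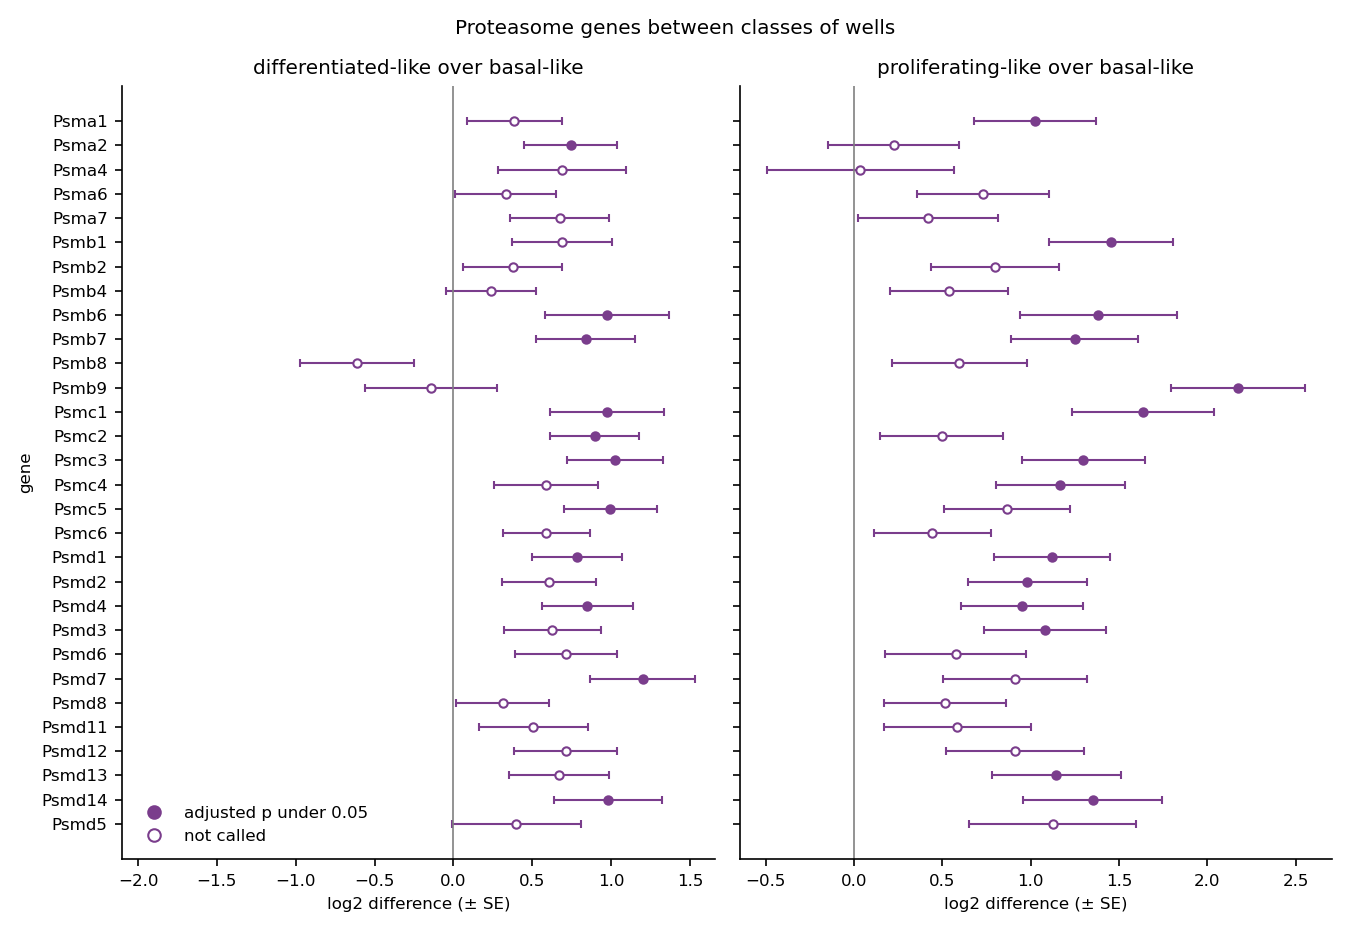
Log2 difference with its SE (horizontal axes) of the 30 tested members (vertical axis, in the order of their roles) in differentiated-like over basal-like wells (left) and proliferating-like over basal-like wells (right), where filled points passed an edgeR adjusted p of 0.05. In the left panel 28 of 30 points lie above 0 with Psmb8 and Psmb9 below it, and in the right panel Psmb9 lies farthest out at 2.17.

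Psmb9 rose by 2.17 on the log2 scale (SE 0.38, edgeR adjusted p = 1.99e-07). A gene needed at least 100 counts summed over the named classes to enter this fit. Psmb9 reached that number only with its 66 counts in proliferating-like wells of P60 and 12 in those of P758. Psmb9 was therefore tested only because of the class in which it was high. It had 192 CPM (95% Poisson interval 99.2 to 335) in proliferating-like wells of P758 and 211 CPM (164 to 269) in those of P60, against 52.5 CPM (28.0 to 89.8) and 57.4 CPM (35.5 to 87.8) in basal-like wells. The intervals are apart in both animals. Of the proliferating-like clusters, the Cenpf-led cluster had 246 CPM in P758 and 279 CPM in P60, and the histone-led cluster 147 and 187 CPM. Other clusters came near the lower of these values: the unnamed Wdr31-led cluster had 85.0 CPM in P758 (2 counts) and 177 CPM in P60 (8 counts), and the basal-like Ly6a-led cluster 126 CPM in P758 (4 counts) and 79.8 CPM in P60 (10 counts). The unnamed Igfbp3-led cluster, with its higher basal score, had 79.2 CPM in P758 (7 counts) and 103 CPM in P60 (60 counts). In the unnamed Sostdc1-led cluster Psmb9 had 22.2 CPM in P758 (1 count) and 123 CPM in P60 (23 counts). The 12 counts of P758 lay in 4 of its 17 proliferating-like wells, with at most 5 in a well, and the 66 of P60 in 21 of 48 wells, with at most 8 in a well. In T cell-like wells Psmb9 had 63.6 CPM in P758 and 54.7 CPM in P60, from 1 and 2 counts.

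Psmb8 lies on the other side of Tap1. It had 112 CPM (45.0 to 231) in proliferating-like wells of P758 and 122 CPM (86.2 to 167) in those of P60, against 113 CPM (75.2 to 164) and 82.0 CPM (55.3 to 117) in basal-like wells. On the log2 scale it differed by 0.60 (SE 0.38, edgeR adjusted p = 0.246). Psmb10 had 0 counts in P758 and 1 count in P60 in proliferating-like wells, where 3 counts would be 48.0 and 9.61 CPM, against 9 and 11 counts in basal-like wells. The difference between Psmb9 and its 2 immune partners was not tested. Together the 3 immune subunits were 47.5% (31.5 to 63.9) of immune plus catalytic constitutive counts in proliferating-like wells of P758. In those of P60 they were 49.8% (42.8 to 56.7), against 49.5% (39.4 to 59.6) and 51.7% (42.4 to 60.9) in basal-like wells. These intervals overlap in both animals.

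Tap1, the head-to-head neighbour of Psmb9 shown above, rose as well, by 1.29 on the log2 scale (SE 0.30, edgeR adjusted p = 0.000207). It had 448 CPM in proliferating-like wells of P758 and 580 CPM in those of P60, against 271 and 276 CPM in basal-like wells. The Poisson intervals of these classes overlap in P758 and are apart in P60. In P758 the unnamed Sostdc1-led cluster had 488 CPM of Tap1 (22 counts). The histone-led cluster had 500 CPM there (17 counts) and the Cenpf-led cluster 386 CPM (11 counts). In P60 the Sostdc1-led cluster had 273 CPM, below the histone-led 619 CPM and the Cenpf-led 472 CPM. B2m, the light chain of MHC class I, rose by 1.16 (SE 0.44), and Tap2, the other transporter subunit, had 0.48 (SE 0.37) and was not called. Of the 23 pathway genes tested 6 were called higher, including Tap1, B2m, Ubb (1.39), the shuttle receptor Ubqln2 (1.56) and the proteasome-bound deubiquitinase Usp14 (1.42). Nfe2l1 was the 1 called lower, with -0.91 (SE 0.37, edgeR adjusted p = 0.0496), just under the threshold of 0.05.

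**Figure D5:**
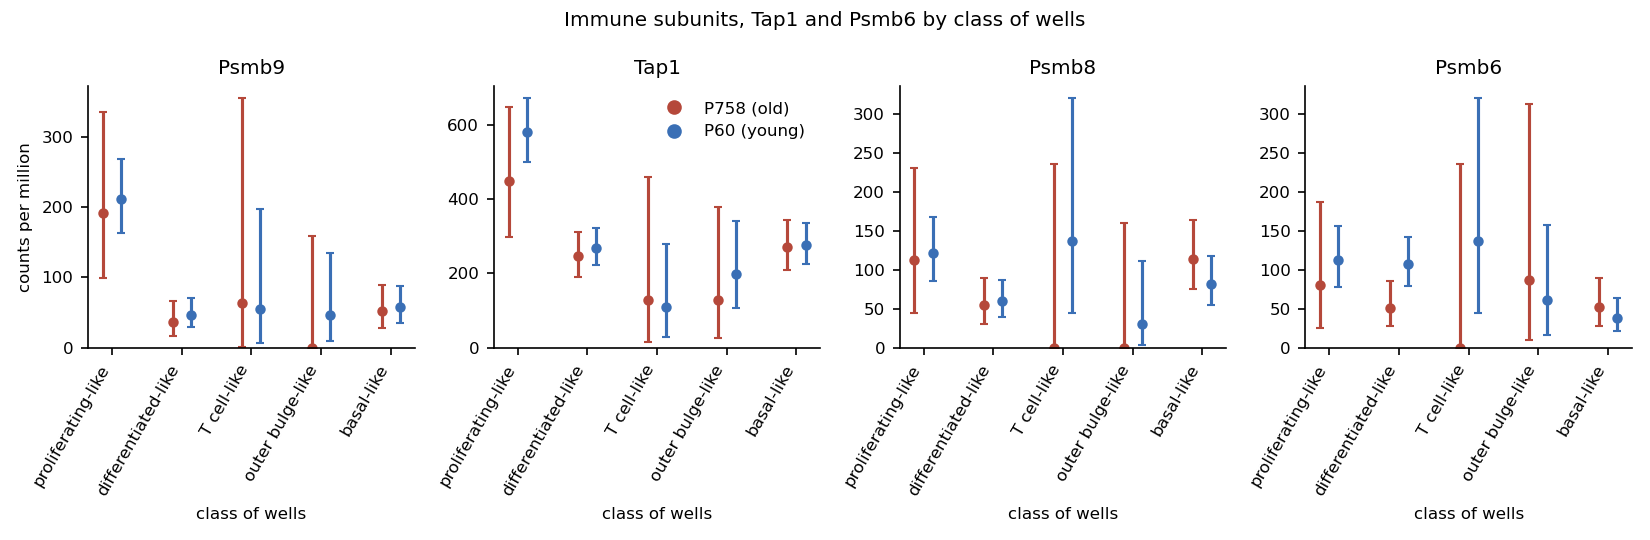
CPM (vertical axes) of Psmb9, Tap1, Psmb8 and Psmb6 in 5 classes of wells (horizontal axes) in old P758 and young P60, where bars are 95% Poisson intervals for counting error. Psmb9 is near 200 in proliferating-like wells of both animals and near 55 in basal-like wells, while Psmb8 overlaps between these classes.

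Markers of immune cells were counted in the same wells. Of 12 T cell markers 1, Thy1, was counted in proliferating-like wells of P758 and P60, at 336 and 221 CPM, and the defining genes Cd3g, Cd3d, Cd3e, Trdc and Ptprc were at 0; the summed list stood at 125 and 38.3 CPM in basal-like wells and at 27622 and 29966 CPM in T cell-like wells. Of 10 Langerhans markers 7 were counted in proliferating-like wells of P758, at 1903 CPM in sum, and 3 in those of P60, at 12.8 CPM, against 174 and 164 CPM in basal-like wells and 69788 CPM in Langerhans-like wells of P60. The part of these markers in the Psmb9 difference was not tested. Proliferating-like wells were deeper too, with median counts of 2257 in P758 and 2712 in P60, against 891.5 and 1098 in basal-like wells. In wells of 1000 to 3000 counts their proteasome share was 0.369% in P758 and 0.411% in P60, against 0.340% and 0.315% in basal-like wells, with overlapping intervals in P758 and not in P60. Without P60, which leaves 1 library of proliferating-like wells assumed to vary like the others, 9 members could be tested by edgeR, without Psmb9, and 0 were called, beside 5.92% of the 1385 genes tested.

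T cell-like wells differed from basal-like wells in 1 of 30 members, while 18.3% of all genes were called in either direction and, among genes not used to cluster, 17.8% were called in either direction and 5.25% higher. The member was Psma7, an alpha subunit, higher by 1.74 on the log2 scale (SE 0.51, edgeR adjusted p = 0.00671). It had 318 CPM in T cell-like wells of P758 and 356 CPM in those of P60, from 5 and 13 counts, against 92.9 and 93.0 CPM in basal-like wells. The median of the 30 members was 0.29, beside -0.44 for the other genes not used to cluster, and 20 were above 0. Psmb8 and Psmb9 were at -0.08 (SE 0.75) and 0.02 (SE 0.95). The smallest p among members after Psma7 belonged to Psmb1 (1.27), Psmb2 (-2.40), Psmc5 (1.09) and Psma6 (1.06), none of them called. On simulated counts the test recovered 1% of 2-fold changes here, against 34% for the differentiated-like and 23% for the proliferating-like comparison.

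The proteasome share of basal-like and of differentiated-like wells overlapped between the ages. Basal-like wells, in animals with at least 5, had a proteasome share of 0.365 ± 0.0921% in old animals (SD, n = 3) and 0.333 ± 0.0381% in young ones (n = 2). Differentiated-like wells had 0.438 ± 0.00430% in old animals and 0.414 ± 0.0432% in young ones (n = 2 each). The core particle's share of basal-like wells did not overlap: it was 0.119%, 0.151% and 0.111% in old P662, P722 and P758, against 0.0847% and 0.101% in young P59 and P60, with means of 0.127 ± 0.0210% in old (n = 3) and 0.0926 ± 0.0113% in young animals (SD, n = 2). The value of P59 rests on 4 counts, and this difference was not tested. With 3 values against 2, a lack of overlap carries little information. Over all wells the core means lay the other way, at 0.131% in old and 0.178% in young animals. With the Igfbp3- and Smoc2-led cluster counted as basal-like, the proteasome share of basal-like wells was higher in P60 than in P758, the reverse of the order without it. Outer bulge-like wells had proteasome shares of 0.0710% in P662 (1 count) and 0.237% in P758, against 0.267% in P60. P60 was the only young animal with at least 5 such wells. With 2 values against 1, a lack of overlap carries little information, and the intervals of P758 and P60 given above overlap. Proliferating-like wells could be compared in 1 animal per age only, with 0.446% (0.395 to 0.502) in P758 and 0.492% (0.468 to 0.518) in P60.

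The nuclease plate, cells of P758 digested with different nucleases and concentrations, gave 348 counts of members of 128007, or 0.272% (0.244 to 0.302, exact 95% interval), against 0.400% and 0.389% on the other P758 plates. Its interval lies below both. Its core share was 0.0781%, against 0.124% and 0.121% on those plates. The Sca-1-negative plate gave 53 of 17377 counts, or 0.305% (0.229 to 0.399), inside the range of the classes above. The sort against Sca-1 was made to enrich for cells other than stem cells. The plate mixes young and old cells that its well names do not tell apart, so the ages were not compared there.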

How the data were processed

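Per the labels' protocols, footprints were made in single sorted wells after cycloheximide, and the deposited files give whole-number counts per gene and well. The authors named featureCounts, STAR, UMI-tools, Bowtie2 and fastp and the build GRCm38.p6, per the submitters' processing notes, with no role, order or version stated. Wells under 100 counts were left out and counts summed per animal, or per class and animal where a class had at least 5 wells. The age test was edgeR 4.0.16 (R 4.3.3; TMM, robust quasi-likelihood, genes of at least 100 counts, Benjamini-Hochberg at 0.05); DESeq2 1.42.0 and limma 3.58.1 were alternatives. SEs derive from the F statistic. The tests were tried on simulated counts. The labels' plates are technical replicates, and the animal is the replicate.

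Wells were clustered without the members in scanpy 1.11.5 (1500 variable genes, 15 components, 15 neighbours, Leiden resolution 1, centred per plate). As cells were sorted singly, doublets were not called. Each marker list had its own minimum mean log2 ratio, 0.25 for the basal and differentiated lists and 2 for the rest. A cluster took the name of the top-scoring list among those past their minimum, with at least 3 markers higher and no other list leading its 10 top genes; this naming rule was set after the clusters were seen. Exact intervals (95%, Clopper-Pearson or Poisson) and limits for a count of 0 (3 counts) reflect counting error alone. Single genes were named by a rule: catalytic and immune subunits, members called and the 5 smallest p per test; its part on levels per coding length was not used for lack of lengths. The members, lists and tests were chosen with earlier results of these data known. Some pathway genes are not reported here. Figures were drawn with matplotlib 3.10.9.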

Additional observations from a re-analysis of the deposited data

Results flagged for a closer look

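Among 8 groups of plates checked for a plate far from the rest (4 sets of members, 5 old and 5 young plates), 1 stood out: the core particle's share of 0.325% on plate Young10, which is animal P57, while the other young plates lay between 0.0728% and 0.144%. The gap to the next plate was 0.716 of the whole range, above the critical value for 5 plates. The plate kept 13 wells with 5230 counts, and its share rests on 17 counts of core subunits with an exact 95% interval of 0.189 to 0.520%. The check counts plates and not animals: 3 of the 5 young plates are of P60, and 3 animals are too few for it. Such a check marks about 1 group in 20 by chance, and the part of the small number of counts was not tested.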

How the results depend on the processing

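No paired analysis was possible because the replicate numbers of old and young plates are running plate numbers that the groups do not share. Between the ages 0 members were called under all 14 alternatives run (filterByExpr left 0 members to test), with a range of 0 to 0 when each animal was left out. The old minus young share stayed within 1 SD under all 10 alternatives for all members (-0.0919 to 0.0267 percentage points without 1 animal, above 0 without P57, and 0.0312 with at least 500 counts per well), for the core (-0.0989 to 0.0272) and for the immune subunits (-0.00391 to 0.00697). For the regulatory particle it was -0.00805, 0.0297 with at least 500 counts per well, 0.00484 over plates, and -0.0135 to -0.00125 without 1 animal.

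For differentiated-like wells, where 11 members were called, 1 was called with at least 500 counts per well (990 of 4949 genes), 4 by DESeq2 (17.3% of genes, against 34.8% by edgeR), and 3 to 19 without 1 animal (3 of 9 tested without P60, 7 of 28 without P758, 19 of 30 without P59, beside 26.9%, 21.9% and 37.6% of genes). Alternatives chosen after seeing the data gave 0 of 3 in wells of 1000 to 3000 counts (27.1% of genes), 17 without keratin and mitochondrially encoded genes (34.7%), 6 with the Igfbp3- and Smoc2-led cluster as basal-like (25.8%), and 17 in libraries of at least 10000 counts (37.6%). For proliferating-like wells, where 14 were called, beside 26.4% of genes, filterByExpr gave 7 of 11 tested (25.4%), at least 500 counts per well 4 (13.7%), DESeq2 2 (10.3%), wells of 1000 to 3000 counts 0 of 3 tested (5.62%), the Igfbp3- and Smoc2-led cluster as basal-like 7 (16.6%), and leaving out 1 animal 0 to 17 (0 of 9 tested without P60, beside 5.92% of genes). For T cell-like wells, where 1 was called, at least 500 counts per well gave 0 (14.8% of genes), leaving out 1 animal 0 to 2 (0 of 9 tested without P60 and 2 of 28 without P758, beside 6.28% and 5.76% of genes), and wells of 1000 to 3000 counts could not be run. Psmb9 stayed called in proliferating-like wells under all 11 alternatives that tested it (log2 1.56 to 2.31), and no called member reversed. In the main fit Psmb9 passed the count filter only through its counts in proliferating-like wells. Whether this held in the alternatives was not checked. In differentiated-like wells the Igfbp3- and Smoc2-led alternative called 5 of 31 members higher, beside 12.3% of genes higher. At least 500 counts per well called 0 of 31 higher, beside 9.86% of genes. That alternative clustered the wells anew and tested more genes (4949, against 4171). Its Igfbp3-led cluster was named basal, and a Cd74-led one with Nr4a1 and Atf3 Langerhans. Some other alternatives left fewer genes and libraries. The cause of these changes was not tested. Depth in P57, P59 and P722 limits the age comparison.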
